A study of Mus musculus with 6 samples.

Results

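The genes described here are 10 C-type lectin receptors of myeloid cells, Clec4a1, Clec4a2, Clec4a3, Clec4d, Clec4e, Clec4n, Clec5a, Clec7a, Clec10a and Clec12a. They were found by gene name and make up 10 of the 33965 genes in the table. The family was chosen by its measured GB2 and PBS levels, which were already known. The difference between these groups is therefore given below as a description, and nothing is read from its p-values or calls. RNA-seq was performed on 6 MC38 tumors, a mouse colon carcinoma line grown under the skin of C57BL/6 mice, with 3 tumors of PBS-treated and 3 of GB2-treated hosts. GB2 consists of MSA-2, a STING agonist, and artesunate, which the study used to inhibit TREM2, held together by a disulfide bond. All tumors were otherwise of the same line and host strain, and whole tumors were sequenced, so tumor cells and the cells of the host were measured together.

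C-type lectin receptors are membrane proteins of macrophages, monocytes, dendritic cells and neutrophils that bind sugars, lipids and products of damaged cells. Activating members signal through an ITAM motif, carried in their own tail (Clec7a) or on the adaptors FcRγ (Fcer1g) and DAP12 (Tyrobp), to the kinase Syk and on to Card9, Bcl10, Malt1 and NF-κB. Inhibitory members carry an ITIM motif in their tail, which recruits phosphatases such as SHP-1 (Ptpn6).

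Total counts were 64764405 to 69878156 in PBS tumors and 81210553 to 83690056 in GB2 tumors, so every GB2 library was the larger. Low counts piled up at multiples of 4 (7017 values of 4, against 2984 of 3 and 2017 of 5), so 4 counts were taken as about 1 read pair, a reading that the sources used here do not state. Single receptor counts ran from 14 to 502, which on that reading is about 3.5 to 125.5 read pairs, and all 10 receptors passed the filter on low counts. No gene of the 19602 tested was called at an adjusted p below 0.05 and a 2-fold difference (edgeR, quasi-likelihood F-test, Benjamini-Hochberg, smallest adjusted p 0.166), 1360 had an unadjusted p below 0.05, and DESeq2 called 385. The labels do not say whether the tumors of a group came from separate animals, so p-values measure the spread between these tumors. In whole tumors, more cells of a type and more RNA per cell cannot be told apart.

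Of the 10 receptor genes, 9 lie on the same chromosome. On the positions of the table, the 6 Clec4 genes lay within 368 kb of chromosome 6 (chr6:122898807-123266829), in the order Clec4a1, Clec4a3, Clec4a2, Clec4n, Clec4d and Clec4e. Clec4d, on the plus strand, and Clec4e, on the minus strand, ended 6523 bases apart. Clec12a (chr6:129319654-129341379, plus strand) and Clec7a (chr6:129438554-129449740, minus strand) lay within 130 kb of each other, and Clec5a (chr6:40551828-40562755, minus strand) stood apart on the same chromosome. Clec10a was the only receptor elsewhere (chr11:70047023-70061660, plus strand).

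Promoter windows of RefSeq (GRCm38.p6, 250 bases before the annotated start and 50 from it) were matched for 8 of the 10 receptors, with 10 windows in all. They are printed 5′ to 3′ on the gene's strand for Clec4d with Clec4e, for Clec7a with Clec12a and for the distant Clec5a. Capitals mark the core GAGGAA (or TTCCTC on the other strand) of PU.1, a transcription factor of myeloid cells. The windows are Clec4d chr6:123261857-123262156 (plus), Clec4e chr6:123289822-123290121 (minus), Clec7a chr6:129472730-129473029 (minus), Clec12a chr6:129349994-129350293 (plus) and Clec5a chr6:40585756-40586055 (minus).
Clec4d: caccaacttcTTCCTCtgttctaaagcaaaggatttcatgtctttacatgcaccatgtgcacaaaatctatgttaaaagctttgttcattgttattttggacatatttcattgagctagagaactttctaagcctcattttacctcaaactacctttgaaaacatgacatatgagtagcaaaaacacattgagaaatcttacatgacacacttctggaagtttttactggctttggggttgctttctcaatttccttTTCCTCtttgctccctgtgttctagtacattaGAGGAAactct
Clec4e: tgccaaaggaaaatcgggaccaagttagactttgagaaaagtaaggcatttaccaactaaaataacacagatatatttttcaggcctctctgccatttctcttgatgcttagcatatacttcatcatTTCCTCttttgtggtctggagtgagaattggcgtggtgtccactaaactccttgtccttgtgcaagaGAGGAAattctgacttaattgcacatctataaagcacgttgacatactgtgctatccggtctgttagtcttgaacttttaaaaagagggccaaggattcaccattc
Clec7a: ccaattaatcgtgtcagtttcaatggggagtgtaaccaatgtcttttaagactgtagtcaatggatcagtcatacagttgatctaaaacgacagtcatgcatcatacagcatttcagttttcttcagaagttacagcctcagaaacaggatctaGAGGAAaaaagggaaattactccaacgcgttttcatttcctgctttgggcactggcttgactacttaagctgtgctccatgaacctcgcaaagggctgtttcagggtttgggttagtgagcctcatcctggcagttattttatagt
Clec12a: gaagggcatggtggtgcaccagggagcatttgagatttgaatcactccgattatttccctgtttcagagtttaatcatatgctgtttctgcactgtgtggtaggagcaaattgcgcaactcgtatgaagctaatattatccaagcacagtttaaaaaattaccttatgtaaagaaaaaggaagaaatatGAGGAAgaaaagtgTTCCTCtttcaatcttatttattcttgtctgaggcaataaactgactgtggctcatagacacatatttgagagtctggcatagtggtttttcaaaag
Clec5a: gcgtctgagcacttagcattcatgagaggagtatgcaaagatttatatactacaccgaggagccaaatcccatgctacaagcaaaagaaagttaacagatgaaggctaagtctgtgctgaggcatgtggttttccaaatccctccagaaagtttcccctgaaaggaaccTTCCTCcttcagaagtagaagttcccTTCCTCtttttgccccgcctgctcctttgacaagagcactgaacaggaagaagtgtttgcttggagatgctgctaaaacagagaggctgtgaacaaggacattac

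The letters GAGGAA, searched on both strands, were present in 8 of the 10 receptor windows, belonging to 7 of the 8 receptors, and in 28.3% of all 32851 windows of the same length. Clec4a2 was the receptor without them. Counting from 0 at the annotated start, the matches began at -123 and -56 in Clec4e, at -96 in Clec7a, at -61 and -47 in Clec12a and at -81 and -55 in Clec5a. Among the printed windows, Clec4d differed in having a match at -240 and the others past the start, at 7 and 39. Of the receptors not printed, Clec4a1 had matches at -217 and -187 and Clec4a3 at -50. The C/EBP pattern TTNNGNAA was found in 5 of the 8 receptors (40.7% of all windows), the AP-1 pattern TGANTCA in Clec4a2 and Clec12a (7.81% of all windows), and the IRF pattern GAAANNGAA in Clec4d alone (8.56% of all windows), where it shared 3 bases with a PU.1 match. A match to such letters is a description of the sequence, not a site of binding.

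All 10 receptors had a higher mean CPM in GB2 than in PBS tumors, with fitted log2 fold changes from 1.11 (Clec12a) to 2.42 (Clec4e) and a median of 1.67, against a median of -0.0164 over all genes tested. In 9 of the 10, every GB2 tumor was above every PBS tumor in CPM, and Clec10a was the exception. Over all genes tested, 8.61% had every GB2 tumor above and 6.68% every GB2 tumor below every PBS tumor. On looser limits, an unadjusted p below 0.05 and 2-fold or more, 9 of the 10 were higher in GB2 tumors (again all but Clec10a), where 3.74% of all genes were higher and 0.918% lower. None of the 10 passed after adjustment, as for all genes (0% called). In DESeq2, which called 385 of the 19602 genes tested, 5 did (Clec4a1, Clec4a3, Clec4e, Clec4n and Clec7a). Because the receptors were chosen with this contrast known, nothing is read from these counts.

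**Figure D1:**
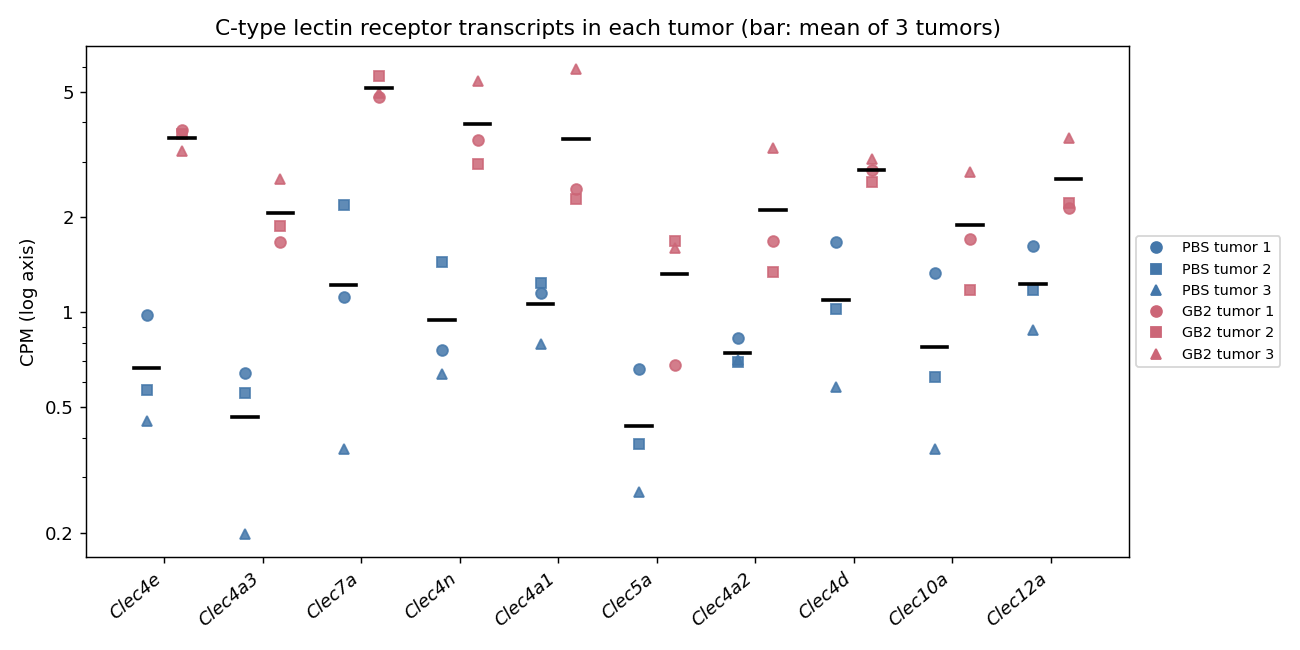
CPM of each receptor in the 6 tumors on a log axis, ordered by fitted log2 fold change, with points for single tumors and black bars for group means (n = 3). Blue PBS points and red GB2 points are separate for 9 receptors, and for Clec10a 1 GB2 tumor at 1.18 CPM lies below the highest PBS tumor at 1.34.

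Among the receptors that signal with FcRγ, Clec4e (Mincle, a receptor for mycobacterial glycolipid and products of dead cells) had the largest fitted fold change, except without PBS tumor 2, where Clec4n was at 2.51 and Clec4e at 2.32 on the log2 scale, and on FPKM, where Clec4n was at 2.02 and Clec4e at 1.88 with log2(FPKM + 0.1) and at 1.198 and 0.603 with log2(FPKM + 1). Clec4e (ENSMUSG00000030142) stood at 0.981, 0.568 and 0.453 CPM in PBS tumors 1, 2 and 3 and at 3.80, 3.67 and 3.25 CPM in GB2 tumors 1, 2 and 3, the order used throughout. The GB2 tumors were close together, with a coefficient of variation of 8.08% against 41.6% in PBS tumors, and the log2 fold change was 2.42 (SE 0.39). Its partner and neighbour Clec4d (MCL, ENSMUSG00000030144), which pairs with Mincle at the cell surface, stood at 1.67, 1.02 and 0.580 CPM in PBS tumors and at 2.82, 2.58 and 3.06 CPM in GB2 tumors. The GB2 tumors were again narrowly spread (8.39%), but the log2 fold change of 1.37 (SE 0.43) was smaller than that of Clec4e. Clec4n (Dectin-2, a receptor for fungal mannans, ENSMUSG00000023349, chr6:123206802-123223980) stood at 0.761, 1.45 and 0.637 CPM in PBS tumors and at 3.51, 2.96 and 5.43 CPM in GB2 tumors. PBS tumor 2 and GB2 tumor 3 were the high tumors of their groups, and the log2 fold change was 2.06 (SE 0.44).

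Clec7a (Dectin-1, the β-glucan receptor, ENSMUSG00000079293), which carries its own ITAM-like motif, had a wide spread in PBS tumors and a narrow one in GB2 tumors. It stood at 1.12, 2.19 and 0.368 CPM in PBS tumors and at 4.82, 5.63 and 4.95 CPM in GB2 tumors. PBS tumors therefore differed 5.94-fold from highest to lowest, and GB2 tumors 1.17-fold. The log2 fold change was 2.07 (SE 0.58), and it was 2.80 without PBS tumor 2.

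Clec5a (MDL-1, ENSMUSG00000029915), which signals through DAP12, stood at 0.659, 0.383 and 0.269 CPM in PBS tumors and at 0.679, 1.68 and 1.60 CPM in GB2 tumors. GB2 tumor 1 was barely above PBS tumor 1, so the separation of its groups rested on 0.679 against 0.659 CPM. The log2 fold change was 1.60 (SE 0.54).

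The inhibitory receptors Clec4a2 and Clec12a were also higher in every GB2 tumor. Clec4a2 (DCIR, ENSMUSG00000030148, chr6:123083387-123120958) stood at 0.829, 0.695 and 0.707 CPM in PBS tumors and at 1.68, 1.35 and 3.32 CPM in GB2 tumors. It had the narrowest spread of the 10 in PBS tumors (9.91%) and one of the widest in GB2 tumors (49.9%), where tumor 3 stood apart, and the log2 fold change was 1.51 (SE 0.43). Clec12a (MICL, a receptor for uric acid crystals, ENSMUSG00000053063) stood at 1.62, 1.18 and 0.877 CPM in PBS tumors and at 2.14, 2.22 and 3.56 CPM in GB2 tumors. The log2 fold change was 1.11 (SE 0.38).

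The DCIR relatives Clec4a1 and Clec4a3, next to each other in the gene cluster, differed in how the tumors were spread. Clec4a1 (ENSMUSG00000049037, chr6:122898807-122911578) stood at 1.15, 1.23 and 0.792 CPM in PBS tumors and at 2.47, 2.28 and 5.91 CPM in GB2 tumors, with a log2 fold change of 1.74 (SE 0.46). Clec4a3 (ENSMUSG00000043832, chr6:122929474-122946834) stood at 0.643, 0.553 and 0.198 CPM in PBS tumors and at 1.67, 1.88 and 2.65 CPM in GB2 tumors, with a log2 fold change of 2.15 (SE 0.51). GB2 tumor 3 was 2.49 times the mean of the other GB2 tumors for Clec4a1 and 1.49 times for Clec4a3.

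Clec10a (MGL1, a macrophage and dendritic cell receptor for galactose-type sugars, ENSMUSG00000000318) was the receptor whose groups overlapped. It stood at 1.34, 0.624 and 0.368 CPM in PBS tumors and at 1.70, 1.18 and 2.78 CPM in GB2 tumors. GB2 tumor 2 was below PBS tumor 1, and the log2 fold change was 1.28 (SE 0.57), or 1.94 without PBS tumor 1. Of the 75-base windows of its transcripts, 4.44% also occurred in its near copy Mgl2 and 3.24% of those of Clec4a2 in Clec4a4 or Clec4b1 (GENCODE M21), while the other 8 receptors shared none. Of 150-base windows the shared part was 0.931% for Clec10a and 0.468% for Clec4a2. Reads of these genes could be split between copies to that extent.

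Per transcript length, the receptors lay between percentiles 11.2 and 31.7 of the genes tested in PBS tumors and between percentiles 23.0 and 50.1 in GB2 tumors. In PBS tumors the mean FPKM ran from 0.102 (Clec5a) to 0.624 (Clec4a1), followed closely by Clec4n at 0.616 and Clec4d at 0.612, and each receptor overlapped the next in this order. In GB2 tumors the order was Clec4n (2.74 ± 0.93 FPKM, SD, n = 3), Clec4a1 (2.24 ± 1.32), Clec7a (1.898 ± 0.115), Clec4d (1.72 ± 0.17) and Clec4a3 (1.52 ± 0.39), then Clec4a2 (0.705 ± 0.364), Clec4e (0.701 ± 0.054), Clec10a (0.631 ± 0.284), Clec12a (0.467 ± 0.146) and Clec5a (0.333 ± 0.138). The only step without overlap was that between Clec4a3, whose lowest tumor was at 1.25 FPKM, and Clec4a2, whose highest was at 1.12. Clec4e was 9th of the 10 in PBS and 7th in GB2 tumors in this order.

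**Figure D2:**
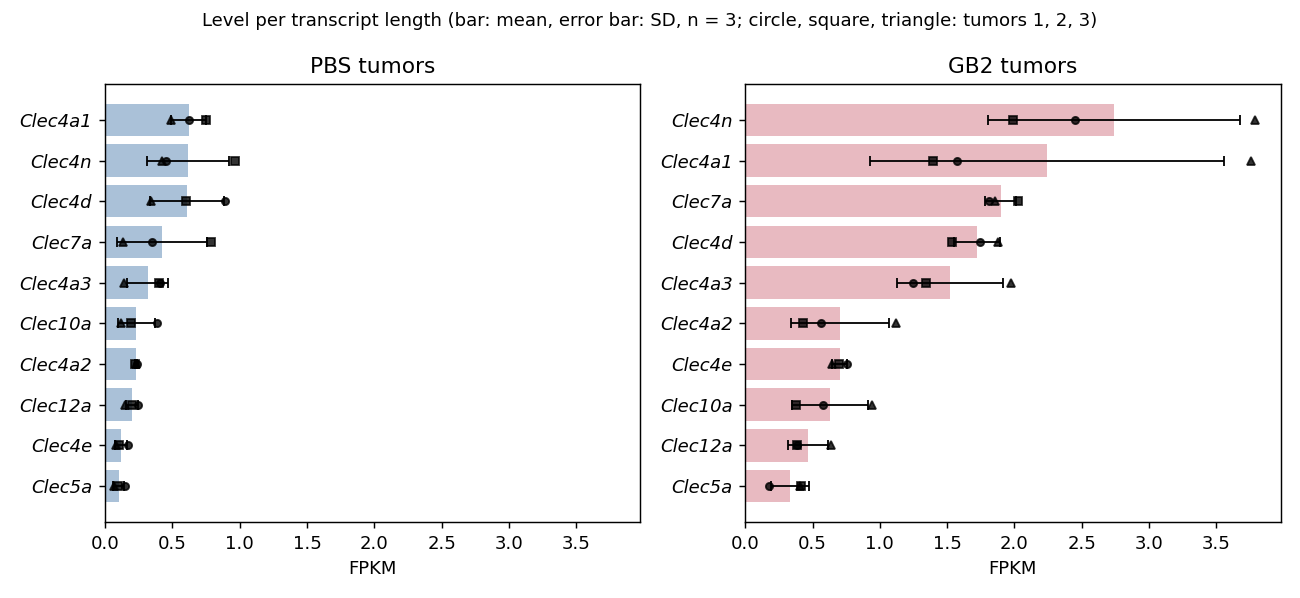
Mean FPKM of each receptor in PBS and GB2 tumors (bars), with the SD over 3 tumors and the single tumors as points. The receptors lie between 0.102 and 0.624 FPKM in PBS tumors, and in GB2 tumors a step separates Clec4a3 and the receptors above it from Clec4a2 and those under it.

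The summed FPKM of the 10 receptors was 3.92, 4.34 and 2.18 for PBS tumors 1, 2 and 3 and 11.3, 10.6 and 17.0 for GB2 tumors 1, 2 and 3. The share of this sum taken by each receptor overlapped between the groups for 8 of the 10. Clec4n made up 17.8% ± 5.5 (SD, n = 3) of it in PBS tumors and 20.9% ± 1.9 in GB2 tumors, and Clec4e 3.54% ± 0.97 and 5.70% ± 1.64. Clec12a took 5.98% ± 1.16 in PBS tumors and 3.58% ± 0.17 in GB2 tumors, with every GB2 tumor below every PBS tumor. Clec4a3 took 8.69% ± 2.05 and 11.8% ± 0.82, with every GB2 tumor above. In CPM, 6.68% of all genes tested had every GB2 tumor below every PBS tumor and 8.61% every GB2 tumor above. The shares of 1 sum also depend on each other, so nothing is read from these separations.

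Within groups, the receptors did not all rank the tumors alike. GB2 tumor 3 was the highest of its group for 7 of the 10, most of all for Clec4a1, Clec4a2 (2.19 times the mean of the other GB2 tumors) and Clec10a (1.93 times). Clec7a (0.948 times) and Clec4e (0.870 times) were lower in GB2 tumor 3 than that mean, and Clec4d was close to it (1.13 times). Clec4d, Clec4e and Clec7a were also the receptors whose GB2 tumors spanned less than 1.2-fold. PBS tumor 3 was the lowest of its group for 9 of the 10, with Clec4a2 as the exception.

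**Figure D3:**
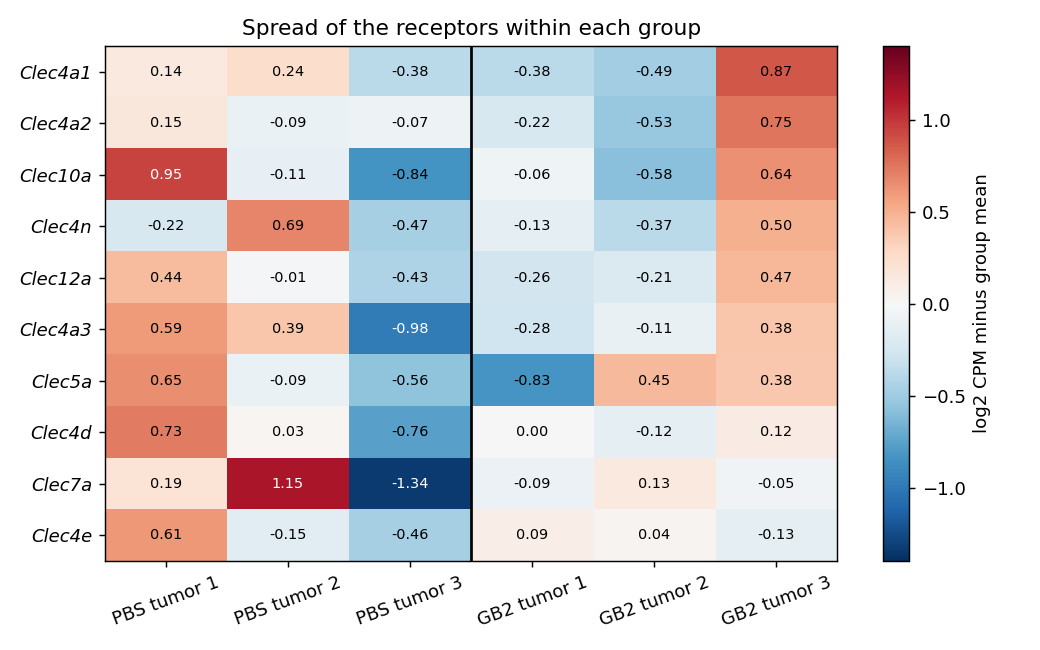
Difference of each tumor from its group's mean in log2 CPM, receptors in rows and tumors in columns, with red above and blue below the mean. GB2 tumor 3 is 0.87 above for Clec4a1 and 0.13 below for Clec4e, and PBS tumor 3 is 1.34 below for Clec7a.

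Markers of macrophages and monocytes were also at higher levels in GB2 tumors. Of 14 such markers, all 14 had a log2 fold change above 0 (median 1.87), 12 had every GB2 tumor above every PBS tumor, and 11 met the looser limits. Their summed level was 65.04 to 97.54 CPM in PBS tumors and 263.0 to 357.6 CPM in GB2 tumors, and no marker was at 0 in all tumors. Their mean log2 CPM was 1.36, 1.81 and 0.761 in PBS tumors and 2.88, 2.92 and 3.60 in GB2 tumors, and that of the receptors was 0.0678, -0.154 and -0.986 in PBS tumors and 1.18, 1.22 and 1.79 in GB2 tumors. The lowest tumor, PBS tumor 3, and the highest, GB2 tumor 3, were the same in both.

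Relative to these markers, the receptors differed between groups by less than the spread of the PBS tumors. Their mean log2 CPM minus that of the markers was -1.67 ± 0.34 (SD, n = 3) in PBS tumors and -1.74 ± 0.065 in GB2 tumors. Single receptors departed from this to either side, from Clec4e, which was 0.62 higher relative to the markers in GB2 tumors, and Clec7a, 0.54 higher, to Clec12a, whose difference was -0.73. Clec12a was the only receptor whose GB2 and PBS tumors did not overlap on this scale, for which the share over all genes was not computed. In CPM, 8.61% of all genes tested had every GB2 tumor above every PBS tumor and 6.68% every GB2 tumor below. Nothing is therefore read from this separation. The part of macrophage number in the receptor values was not tested.

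**Figure D4:**
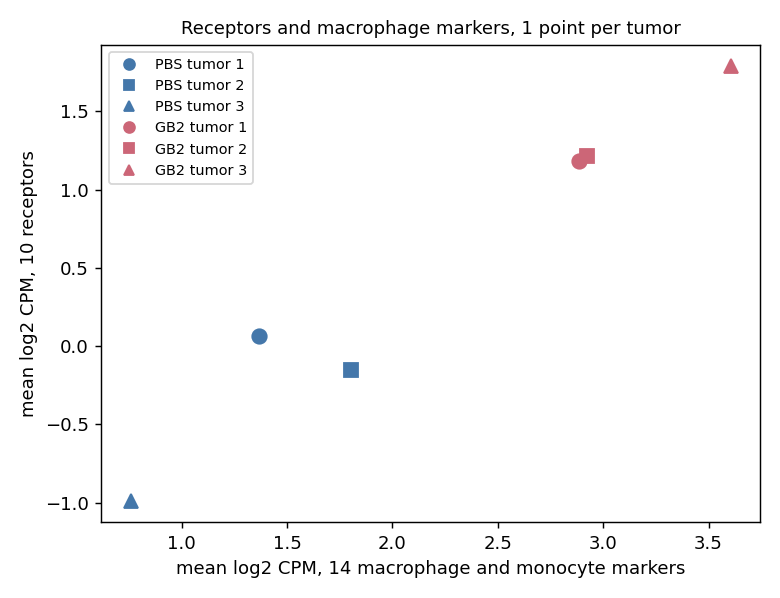
Mean log2 CPM of the 10 receptors against that of 14 macrophage and monocyte markers, 1 point per tumor. The 3 GB2 tumors lie above 1.1 on the receptor axis and the 3 PBS tumors below 0.1, and PBS tumor 3 and GB2 tumor 3 are at the ends on both axes.

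Of other cells that carry such receptors, 6 of 7 neutrophil markers tested had a log2 fold change above 0 (median 1.71, 4 within the looser limits), with a summed level of 2.49 to 4.50 CPM in PBS and 9.64 to 12.8 CPM in GB2 tumors and the defining marker Ly6g at 0 in all tumors. Dendritic cell markers summed to 8.40 to 11.2 CPM in PBS and 14.5 to 17.0 CPM in GB2 tumors (4 of 5 above 0, median 1.03, 1 higher). All 6 fibroblast markers (median 1.501) and 5 of 6 endothelial markers (median 1.36) met the looser limits, as did 2 of 4 mast cell markers. For mast cell markers the median of 2.07 ran from 1.52 to 4.16 when single tumors were left out, and the count from 1 (GB2 tumor 3 left out) over 4 (PBS tumor 2 or GB2 tumor 2) to 5 (PBS tumor 1 or PBS tumor 3), as more of the 6 listed then passed the filter. None of 8 T cell, 3 B cell or 5 NK cell markers did, and none of 8 skin, muscle and fat markers (median 0.76). Leaving out single tumors gave at most 1 NK cell marker (PBS tumor 2) and 2 skin, muscle and fat markers (PBS tumor 1) higher in GB2 tumors on these limits, and 1 T cell marker (PBS tumor 3) lower. The lymphocyte medians had no stable size, and those of T cell and B cell markers had no stable direction. That of T cell markers was -0.32, reaching 0.75 when PBS tumor 2 was left out and -1.41 when GB2 tumor 3 was. B cell markers had a median of -0.10, which reached 1.07 when PBS tumor 3 was left out and -0.87 when GB2 tumor 2 was. NK cell markers had a median of 1.11, which reached 0.31 when GB2 tumor 3 was left out and 1.61 when PBS tumor 2 was. Epithelial markers, which would mark the carcinoma line, were low, summing to 3.00 to 8.52 CPM over the 6 tumors, with Epcam at 0.170 to 1.01 CPM (1 of 5 within the looser limits, median 0.50, or 0.57 to 1.38 leaving out 1 tumor, when other markers can pass the filter, and 2 within the limits when PBS tumor 3 was left out). No marker passed after adjustment in edgeR, while DESeq2 called 8 macrophage, 3 neutrophil, 1 dendritic cell, 6 fibroblast and 4 endothelial markers. The part of these cells in the receptor values was not tested.

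The adaptors of the activating receptors were both higher in every GB2 tumor, and both met the looser limits, or 1 of them when PBS tumor 3 or GB2 tumor 3 was left out. Fcer1g stood at 4.802, 3.58 and 2.09 CPM in PBS tumors and at 6.16, 7.21 and 11.2 CPM in GB2 tumors (log2 fold change 1.23, SE 0.39, adjusted p 0.504, edgeR). Tyrobp stood at 1.84, 1.97 and 0.693 CPM in PBS tumors and at 3.86, 4.53 and 6.33 CPM in GB2 tumors (log2 fold change 1.71, SE 0.45, adjusted p 0.352, edgeR), and DESeq2 called it.

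In the pathway downstream of the receptors, the kinases and Vav proteins had the larger fold changes and the Card9 complex values near 0. Of 24 genes of the Syk-Card9 list, 20 had a log2 fold change above 0, 7 had separate groups, 5 met the looser limits, and the median was 0.30. None passed after adjustment in edgeR, and DESeq2 called Fgr, Vav3, Vav1 and Lyn. Syk itself stood at 8.12, 8.34 and 5.63 CPM in PBS tumors and at 10.7, 12.4 and 14.8 CPM in GB2 tumors (log2 fold change 0.78, SE 0.26, adjusted p 0.545, edgeR). Vav3, a guanine nucleotide exchange factor, had the largest value of the list (2.15, SE 0.62), with Vav1 at 2.03, the Src-family kinases Fgr and Lyn at 1.55 and 1.24, and Btk at 1.27. Card9, the adaptor that links Syk to NF-κB, stood at 1.07, 1.58 and 2.83 CPM in PBS tumors and at 1.60, 1.44 and 2.40 CPM in GB2 tumors, overlapping fully (log2 fold change -0.0094, SE 0.44, adjusted p 0.996, edgeR). Its partners Bcl10 (0.020) and Malt1 (0.40) overlapped as well, and the NF-κB subunit Relb had the lowest value (-0.27). The list's median became 0.13, 0.46 or 0.47 when PBS tumor 1, 2 or 3, respectively, was left out.

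Of the phosphatases that act on ITIM receptors, the lipid phosphatase Inpp5d had a log2 fold change of 1.53 (SE 0.32, adjusted p 0.234, edgeR) and was called by DESeq2, and Ptpn11 was at 0.25. Ptpn6 stood at 77.9, 79.7 and 89.5 CPM in PBS tumors and at 67.3, 71.0 and 74.4 CPM in GB2 tumors, so every GB2 tumor was below every PBS tumor (log2 fold change -0.22, SE 0.15, adjusted p 0.781, edgeR). Of 16 tested response genes of the pathway, 15 had a log2 fold change above 0 (median 1.22, or 0.78 without PBS tumor 3), and 5 met the looser limits, or 3 when PBS tumor 3 was left out and 2 when GB2 tumor 1 or GB2 tumor 2 was. The 5 were the cytokine genes Il1b (2.00, SE 0.38) and Il6, the neutrophil attractant Cxcl2 (1.99, SE 0.50), the prostaglandin synthase Ptgs2 and the nitric oxide synthase Nos2. Il1b, the largest, stood at 1.47, 1.72 and 0.750 CPM in PBS tumors and at 6.05, 5.19 and 4.55 CPM in GB2 tumors (adjusted p 0.207, edgeR). DESeq2 called Il1b and Cxcl2, and Il23a had the smallest value (-0.40). Of 10 transcription factors of myeloid cells, 6 were above 0 (median 0.37, or 0.023 without PBS tumor 2) and 4 met the looser limits, among them Spi1, which encodes PU.1 (1.52, SE 0.38, adjusted p 0.317, edgeR), while Irf4 had the smallest value (-0.36). DESeq2 called 3 of the 10, Spi1 among them.

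**Figure D5:**
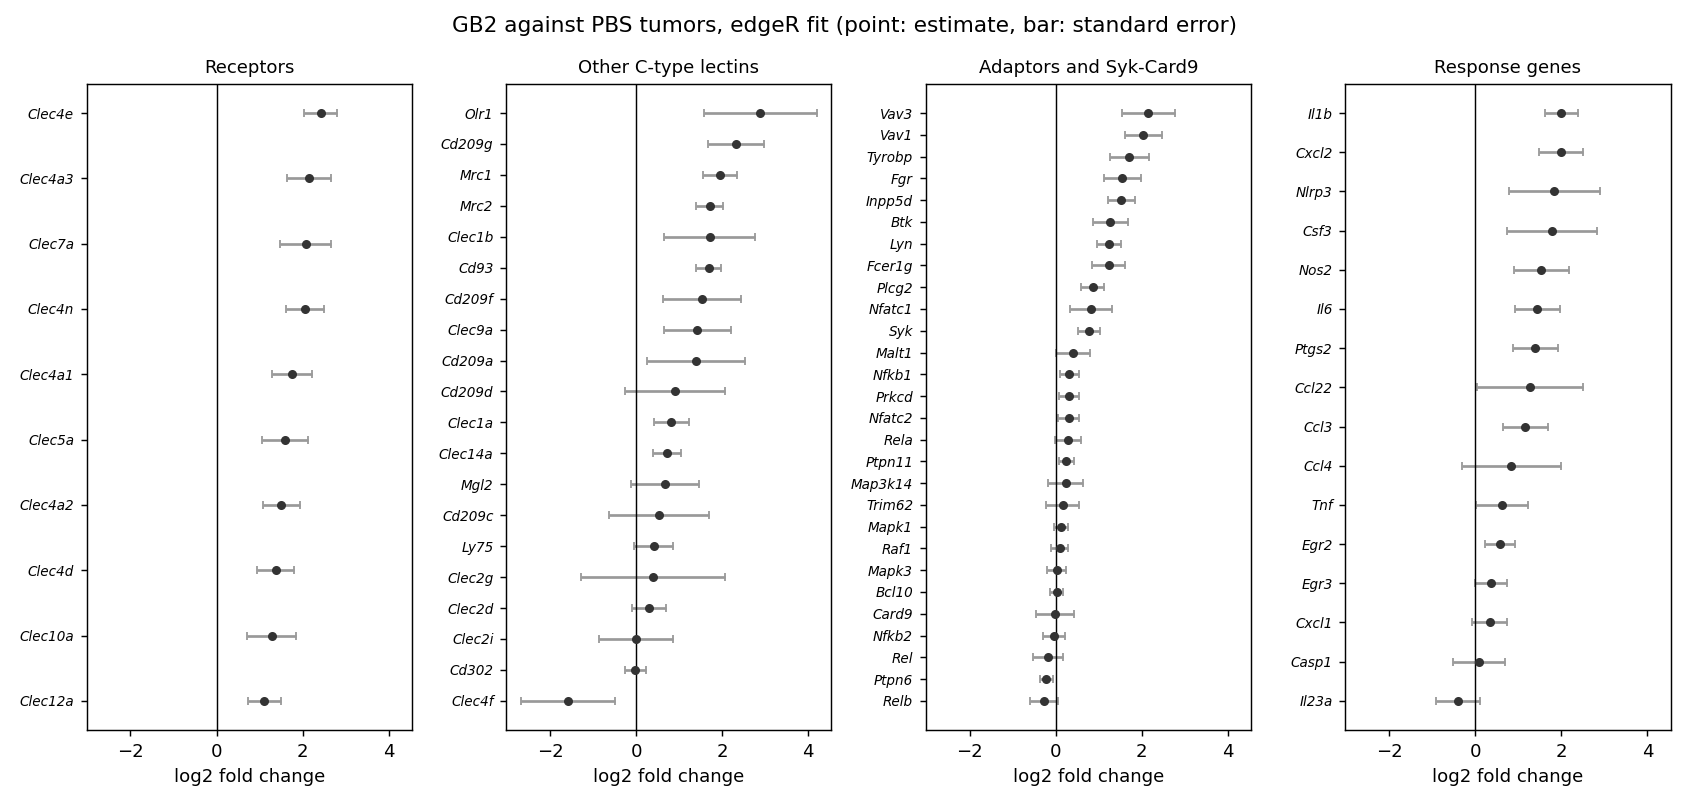
Fitted log2 fold changes (points) with standard errors (bars) of the receptors, other C-type lectins, adaptors with the Syk-Card9 pathway and its phosphatases, and response genes. The receptors lie between 1.11 and 2.42, Card9 and Bcl10 at 0, and the other lists on both sides of 0.

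The other C-type lectins of myeloid, dendritic and endothelial cells were more mixed. Of 20 tested, 17 had a log2 fold change above 0 (median 0.86, or 1.54 without PBS tumor 1 and 0.45 without PBS tumor 3), 8 had every GB2 tumor above every PBS tumor, and 1, Clec4f of liver macrophages, had every GB2 tumor below (-1.58, SE 1.09). The macrophage mannose receptor Mrc1 stood at 6.48, 3.65 and 4.05 CPM in PBS tumors and at 18.04, 10.7 and 25.9 CPM in GB2 tumors (log2 fold change 1.95, SE 0.39, adjusted p 0.234, edgeR). Mrc2 (1.71), Cd93 (1.68) and Cd209g (2.32) were the others to meet the looser limits, which 7 genes of the list met when PBS tumor 1 was left out, and DESeq2 called Mrc1, Mrc2 and Cd93. The values of Cd209g and Clec4f rest on low levels, at most 0.565 and 0.368 CPM in any tumor, respectively. Olr1 had the largest value (2.88, SE 1.31) at a level of at most 0.214 CPM, and Clec12b was at 0 in all tumors. Mgl2, the near copy of Clec10a, was at 0.67 (SE 0.79). Of 6 lymphocyte C-type lectin-like receptors tested, 4 were above 0 and none had separate groups (from -0.33 for Klrd1 to 1.22 for Cd69). Their median of 0.19 turned to -0.21 when PBS tumor 3 was left out and reached 0.90 when PBS tumor 1 was, with 0.0018 when GB2 tumor 3 was.

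The genes outside the family whose profile over the 6 tumors lay nearest to the receptors' mean profile were Lsp1, an actin-binding protein of leukocytes, Pilra, an inhibitory receptor of myeloid cells, Lfng, a glycosyltransferase acting on Notch, Alox5ap, needed for leukotriene synthesis, and the predicted gene Gm12734. Their root mean square differences in centred log2 CPM were 0.124, 0.129, 0.130, 0.133 and 0.139. The receptors themselves lay at 0.253 (Clec4d) to 0.623 (Clec7a) from their own mean. The genes outside the family were picked for the smallest distances among all other genes tested, and the receptors were not picked by distance. Smaller values for the picked genes therefore follow from the selection, and nothing is read from this comparison. Lsp1 stood at 3.65, 3.77 and 1.71 CPM in PBS tumors and at 7.82, 7.48 and 11.5 CPM in GB2 tumors, with PBS tumor 3 lowest and GB2 tumor 3 highest, as in the mean of the family.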

How the data were processed

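RNA-seq of 3 PBS and 3 GB2 MC38 tumors was analysed. Libraries were poly-A selected, stranded and paired-end. The submitters' processing notes name cutadapt 1.9, HISAT2 2.2.1, StringTie 2.1.6, DESeq2, edgeR and the mm10 build. The estimated counts deposited by the authors are whole, unscaled numbers, and 4 were taken as about 1 read pair from their pile-up at multiples of 4, which no source used here states. The FPKM values deposited by the authors are divided by transcript length and library total. Only 641 of 31999 shared gene IDs (2%) have the start and end of the GRCm38 annotation, so gene positions printed are those of the table, and promoter positions are those of GRCm38.p6.

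In R 4.3.3, genes were kept by filterByExpr of edgeR 4.0.16 (minimum count 10), libraries were scaled by TMM, and groups were compared by the quasi-likelihood test (glmQLFit, glmQLFTest), with p-values adjusted by Benjamini-Hochberg over 19602 genes. CPM are scaled by TMM. Log2 CPM used a prior count of 2. Standard errors come from the test statistic. The fit was tested on simulated data. The common dispersion corresponds to a coefficient of variation of 40.5% between tumors.

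The receptors and all gene lists were chosen with earlier results of these data known. Named were all receptors, the extremes and key genes of each list, and the 5 genes nearest in profile. Some list genes are counted but not reported here by name. Alternatives were DESeq2 1.42.0, limma 3.58.1 on log2(FPKM + 1) and log2(FPKM + 0.1), RLE scaling, no filter, counts divided by 4, a replicate block, and leaving out each tumor.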

Additional observations from a re-analysis of the deposited data

How the results depend on the processing

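Every receptor had a log2 fold change above 0 under each alternative run. The medians of T cell, B cell and lymphocyte C-type lectin-like lists changed sign under some: T cell markers also with counts divided by 4 (0.30) and without GB2 tumor 1 (0.17), and B cell markers with a replicate block (0.23), without GB2 tumor 1 (0.28) and without GB2 tumor 3 (0.056). DESeq2 called 385 genes, where edgeR called 0, and 5 receptors. With limma on log2(FPKM + 1), which compresses low values, the receptors' median was 0.69 and that of the other C-type lectins 0.12, 2 receptors in place of 9 and 95 genes in place of 733 were higher on the looser limits, and no gene was called. Leaving out 1 tumor, the receptors' median ran from 1.37 (without GB2 tumor 3) to 1.94 (without PBS tumor 1), that of the other C-type lectins from 0.45 to 1.54 and that of the Syk-Card9 list from 0.13 to 0.47, and edgeR called 0 genes. Between 7 (without PBS tumor 2, PBS tumor 3 or GB2 tumor 3) and 10 (without PBS tumor 1) receptors were then higher on the looser limits. Among all genes tested, those higher then numbered 810 of 20608, 832 of 20695, 503 of 20176 and 950 of 20529, in the same order. Genes lower in GB2 tumors at an unadjusted p numbered 548 without PBS tumor 3 and 310 without PBS tumor 2, against 180. With a replicate block, the receptors' median was 1.60 and 0 genes were called. On the looser limits 7 receptors were then higher, and 636 of the 19602 genes tested. The deviations of same-numbered tumors from their group means had correlations of 0.031, 0.154 and -0.245. With 3 tumors in a group, such values cannot decide whether the numbers pair the tumors. The receptors rest on low counts, which limits single values in PBS tumors most.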
